A study of Mus musculus with 2 samples.

Results

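The cells described here were 87 of the 1878 cells of a mouse embryoid body (EB) library, or 4.63% (95% exact Clopper-Pearson interval 3.73 to 5.68), and 87 of 2653 cells in the series. They were chosen by measured values: a cell entered when Trh stood at 500 CPM or more and Sox17, Foxa2 and Cer1 together at 200 CPM or more. CPM scales the unique molecular identifiers of a gene (UMIs, each standing for 1 captured transcript) to a total of 1000000 UMIs in the cell or in the summed cells. The levels of those 4 genes therefore define the cells and are given as a description only, and the same holds for every other gene compared between the same cells. "Endoderm-like" below means this rule and nothing measured otherwise.

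EBs are floating aggregates of embryonic stem cells that differentiate together. This library came from C57BL/6 stem cells, grown first on mouse embryo fibroblast feeders and then without them, and kept in serum until day 4, a culture meant to yield hemangiogenic mesoderm, the source of blood and endothelium. The second library came from C57BL/6 yolk sacs (YS) of E9.5 and E10.5 embryos, mixed in equal numbers, with dead cells and about 70% of the Ter119-positive red cells sorted out. Each suspension was stored frozen, sorted for live cells after thawing, and run once on the 10x Genomics Chromium system. No genetic change or drug treatment is named for either library. With 1 library per group no test between groups was possible, no p-value is given, and intervals are 95% intervals that cover counting error only.

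Definitive endoderm is the layer that later lines the gut and forms the liver, pancreas, lung and thyroid. It arises at gastrulation when epiblast cells pass through or near the anterior primitive streak under Nodal signalling, and the transcription factors EOMES, FOXA2 and SOX17 are central to it. Its anterior part secretes antagonists of Nodal, BMP and WNT signals, CER1 among them. Trh encodes the precursor of thyrotropin-releasing hormone, a hypothalamic peptide, and its transcript is also a known marker of early definitive endoderm in the mouse embryo.

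The EB library held 73915225 UMIs in all, and barcodes past a set UMI minimum with at most 10% mitochondrial UMIs were taken as cells. The endoderm-like cells had a median of 18481 UMIs (6379 to 46344) and 3726 genes, and the other 1791 EB cells a median of 25895 UMIs (6233 to 99304) and 4434 genes. The endoderm-like cells were thus the shallower group, and the part of this depth difference in the results was not tested. Mitochondrial UMIs had medians of 3.05% and 2.84%. Of the cell barcodes, 2 occurred in both libraries, and 0 of these were endoderm-like cells.

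The rule genes came first. Trh (chr6:92242061-92244650, minus strand, GRCm38) ranged over the endoderm-like cells from 532 to 12544 CPM with a median of 2326 CPM. Summed over cells it stood at 2649 CPM against 88.3 CPM in the other EB cells, of which 32.6% had a Trh UMI. Trh on its own was therefore common outside the rule. Free RNA at the level of empty droplets would give 3.16 of the 4485 Trh UMIs. Sox17 (chr1:4490931-4497354), encoding an endodermal SOX factor, stood at 397 against 11.6 CPM, with a median of 365 CPM and a highest value of 1434 CPM over the cells. Foxa2 (chr2:148042877-148046969), which encodes a pioneer factor of the gut, stood at 80.9 against 1.82 CPM. Cer1 (chr4:82881751-82885148) stood at 179 against 2.98 CPM, and its values over the cells ran from 0 to 1214 CPM with a median of 63.6 CPM.

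The limits of the rule cut through sparse counts. Among cells past the Trh threshold, the lowest summed values inside were 205, 221 and 231 CPM and the highest outside were 188, 184 and 183 CPM. Among cells past the sum threshold, the lowest Trh values inside were 532, 533 and 541 CPM and the highest outside were 412, 407 and 357 CPM. An endoderm-like cell held a median of 10 UMIs of Sox17, Foxa2 and Cer1 together and at least 2, and 11 of the 87 held fewer than 5. Of the 162 EB cells past the Trh threshold 53.7% were endoderm-like, and of the 132 past the sum threshold 65.9% were.

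**Figure D1:**
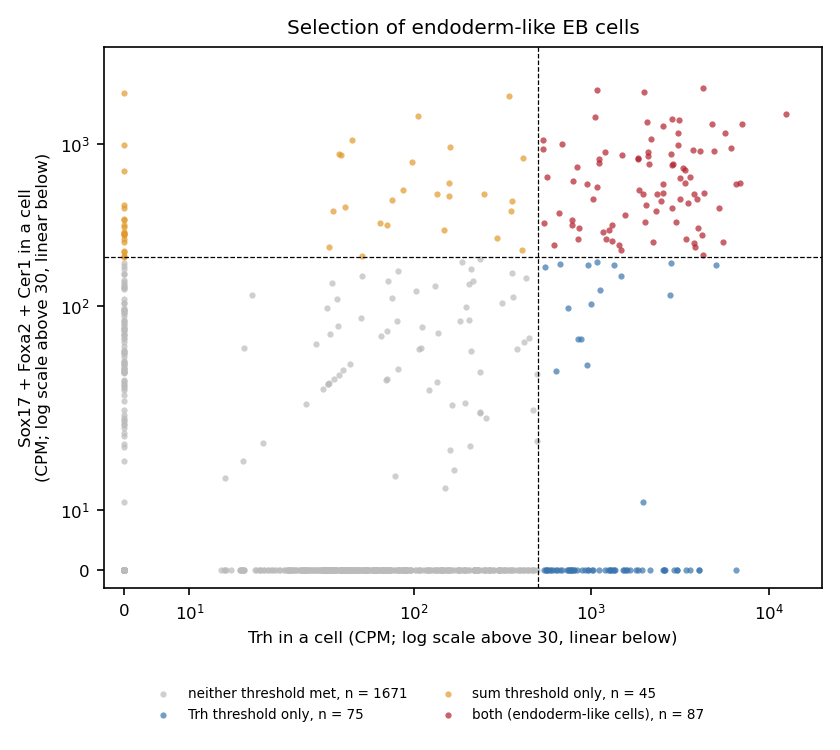
Each point is 1 of 1878 EB cells, with Trh on the x axis and the sum of Sox17, Foxa2 and Cer1 on the y axis (both CPM, log scale above 30 and linear below), and dashed lines at the thresholds. The 87 endoderm-like cells lie at upper right, 75 cells pass the Trh threshold only and 45 the sum threshold only.

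All 3 of Sox17, Foxa2 and Cer1 were seen in 33 of the endoderm-like cells. Sox17 and Foxa2 without Cer1 were seen in 21, Sox17 and Cer1 without Foxa2 in 14, and Sox17 alone in 15. The other 4 cells had Foxa2 and Cer1 but no Sox17 UMI. Median depth went with these combinations, from 22097 UMIs per cell where all 3 genes were seen to 10988 UMIs in the 4 cells without Sox17, and the part of depth in which genes were seen was not tested. With each cell thinned to 6000 UMIs, Foxa2 was seen in 40.2% of the endoderm-like cells and 1.06% of the others, where 66.7% and 2.90% had been seen without thinning.

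Of 8568 genes with a mean of at least 5 CPM over the endoderm-like and the other EB cells, 482 (5.63%) were at least 2-fold higher in the endoderm-like cells and 440 (5.14%) at least 2-fold lower. The median log2 ratio over these genes was -0.08. Below, "higher" and "lower" in counts of genes mean past 2-fold. The counts for gene lists are to be read beside these shares, as descriptions of cells that the rule had already chosen.

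The transcription factors of definitive endoderm stood mostly above the other EB cells: 8 of the 12 listed genes were higher and 1 was lower, with a median log2 ratio of 1.63. Foxa1 and Foxa3, relatives of Foxa2 that act in gut and liver, stood at 16.5 against 0.837 CPM (19.8-fold, 11.8 to 32.7) and 27.8 CPM (20.4 to 36.9) against 1.82 CPM. Foxa3 was seen in 32.2% of the endoderm-like cells and 4.30% of the others. Without the 5 cells that held most UMIs of each, the ratios were 11.4 for Foxa1 and 10.1 for Foxa3. Prdm1, a repressor found in foregut endoderm and in germ cell precursors, stood at 37.2 against 4.55 CPM (8.18-fold, 6.08 to 10.9), while the germ cell gene Prdm14 had 0 UMIs in the 87 cells.

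The factors of anterior streak and anterior endoderm were higher by smaller ratios. Otx2 stood at 113 against 29.4 CPM (3.86-fold, 3.30 to 4.49), Gata6 at 115 against 36.3 CPM (3.17-fold, 2.72 to 3.68) and Hhex at 47.8 against 15.8 CPM (3.03-fold, 2.38 to 3.82). Gsc, the organizer homeobox gene, stood at 98.0 against 38.4 CPM (2.55-fold, 2.16 to 2.99). Gata6 was seen in 83.9% of the endoderm-like cells and Gsc in 60.9%, so neither marked every cell at this depth. Eomes, which acts upstream of both endoderm and Mesp1-expressing mesoderm, stood at 142 against 144 CPM (0.984-fold, 0.861 to 1.12), and Gata4 at 20.1 against 17.4 CPM (1.15-fold, 0.794 to 1.62). Mixl1, a homeobox gene of the streak that is needed for endoderm, was the 1 factor of the list that was lower, at 24.8 against 189.7 CPM (7.65-fold lower, 5.65 to 10.6).

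Among surface and secreted markers of definitive endoderm, 7 of 10 genes tested were higher and 0 lower. The other 2 of the 12 listed genes were near or at 0: Nepn had 0 UMIs, which allows up to 1.77 CPM (3 counts), and Pyy had 1 UMI. Cldn6, a tight junction gene, stood at 359.7 against 43.2 CPM (8.32-fold, 7.59 to 9.11), and Epcam, an epithelial adhesion gene, at 306 against 113 CPM (2.70-fold, 2.46 to 2.95). Kit, the receptor tyrosine kinase, stood at 18.9 against 2.10 CPM (8.99-fold, 5.85 to 13.5), and its ligand gene Kitl at 21.3 against 2.47 CPM (8.61-fold, 5.76 to 12.6). Ligand and receptor were thus both higher in the same group, and without the 5 cells holding most of each the ratios were 5.68 for Kit and 5.90 for Kitl. Apln and Aplnr, an angiogenic peptide gene and its receptor, were lower, at 4.73 against 20.7 CPM and 11.2 against 32.7 CPM. Cxcr4, the chemokine receptor often used with KIT to sort endoderm, stood at 17.7 against 8.67 CPM (2.04-fold, 1.36 to 2.96) and was under 2-fold (1.45) without the 5 cells that held most of its 30 UMIs.

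The list of anterior endoderm and organizer genes shares Gsc, Otx2, Hhex, Lhx1, Lefty1 and Dkk1 with the 2 lists above. Of its 10 genes tested 7 were higher and 1 lower. The higher ones were the transcription factor genes Gsc, Otx2 and Hhex given above and the signalling antagonist genes Sfrp1, Frzb, Shisa2 and Dkk1, and the lower one, Fst, is an antagonist gene as well. Sfrp1 and Frzb encode soluble WNT-binding proteins. They stood at 58.5 against 4.65 CPM (12.6-fold, 9.82 to 15.98) and at 82.1 against 32.9 CPM (2.49-fold, 2.08 to 2.97). Shisa2, which holds back WNT and FGF receptors inside the cell, stood at 39.0 against 3.06 CPM (12.7-fold, 9.38 to 17.1). Dkk1, a WNT co-receptor antagonist, stood at 113 against 46.5 CPM (2.42-fold, 2.08 to 2.81), but 5 cells held 44.0% of its UMIs and the ratio without them was 1.46. Fst, an activin and BMP antagonist, was lower, at 39.0 against 177 CPM (4.54-fold lower, 3.57 to 5.88).

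**Figure D2:**
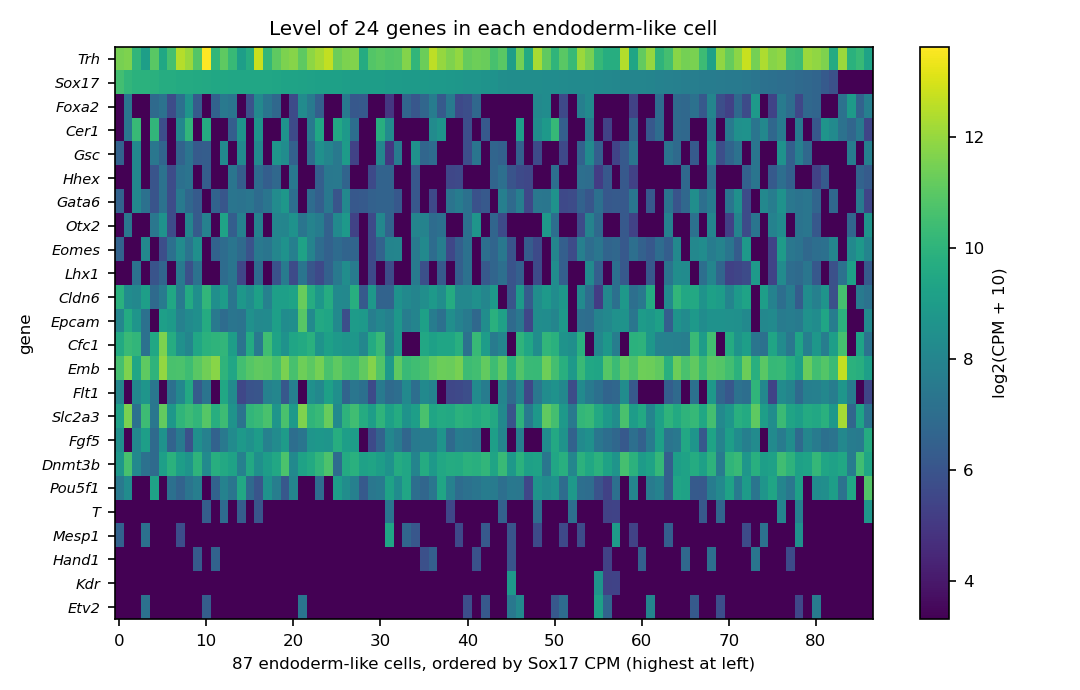
Columns are the 87 endoderm-like cells ordered by Sox17, rows are 24 genes, and colour is log2(CPM + 10) in that cell. Trh and Emb were seen in every cell, Foxa2, Cer1, Gsc and Hhex in some, and T, Mesp1, Hand1, Kdr and Etv2 in few.

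The genes of largest ratio outside these lists included receptors, a Nodal co-receptor and transporters. Emb, which encodes embigin, a membrane partner of monocarboxylate transporters, ranged from 453 to 6564 CPM over the endoderm-like cells with a median of 1630 CPM, and every cell held it. Summed, Emb stood at 1669 against 185 CPM (9.02-fold, 8.64 to 9.41). Slc16a1, encoding the lactate and pyruvate transporter MCT1, stood at 311 against 41.3 CPM (7.53-fold, 6.83 to 8.29). Fam213a, an antioxidant protein gene of the peroxiredoxin-like family, stood at 263 against 14.4 CPM (18.3-fold, 16.2 to 20.6). Pls3, encoding the actin-bundling protein plastin 3, stood at 189.6 against 23.1 CPM (8.22-fold, 7.24 to 9.31), and Elf3, an epithelial ETS factor, at 102 against 13.7 CPM (7.44-fold, 6.26 to 8.81).

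Flt1 encodes VEGFR1, a VEGF receptor best known in endothelium, and it stood at 165 against 11.6 CPM (14.3-fold, 12.4 to 16.6). Its UMIs were spread over 86.2% of the endoderm-like cells (62.1% after thinning) and 18.1% of the others (5.53%). Kdr, encoding the receptor VEGFR2 that marks hemangiogenic mesoderm, stood the other way, at 14.8 against 67.6 CPM (4.58-fold lower, 3.09 to 7.08), and all of its 25 UMIs lay in 4 of the 87 cells. Vegfa, the ligand gene of both, had 39 UMIs and stood at 23.0 against 4.45 CPM (5.18-fold, 3.58 to 7.31).

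In the Nodal list 1 of 14 genes tested was higher and 2 were lower. The higher one was Cfc1, encoding the Nodal co-receptor CRYPTIC, at 549 against 59.4 CPM (9.25-fold, 8.58 to 9.96). Tdgf1, encoding the related co-receptor CRIPTO, stood at 447 against 659 CPM (0.678-fold, 0.630 to 0.728). Lefty2, a Nodal antagonist and target gene, was lower at 8.86 against 70.7 CPM (7.97-fold lower, 4.83 to 14.3). The 2 co-receptor genes thus lay on opposite sides of the other EB cells.

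In the FGF list 3 of 16 genes tested were higher and 5 lower, and in the WNT list 4 of 20 were higher and 6 lower. Fgf5, an epiblast ligand, stood at 254 against 53.8 CPM (4.72-fold, 4.26 to 5.23), and Dusp4, a phosphatase gene induced by ERK signalling, at 108 against 25.1 CPM (4.28-fold, 3.64 to 5.01). Fgf8, the streak ligand, stood at 532 against 410 CPM (1.297-fold, 1.21 to 1.39). The WNT genes higher in the endoderm-like cells were the 4 antagonists above (Dkk1, Frzb, Sfrp1, Shisa2), and those lower were Wnt3, Wnt5a, Wnt5b, Fzd10, Lef1 and Sp8. In the BMP list 0 of 17 were higher and 4 lower, Bmp4 itself at 5.32 against 63.1 CPM (11.9-fold lower, 6.25 to 26.0). Of 6 retinoic acid genes tested 0 were higher and 2 lower (Crabp1 and Crabp2, with 1 UMI each), and Cyp26a1, the gene of the enzyme that breaks retinoic acid down, stood at 298 against 235 CPM (1.27-fold, 1.16 to 1.39).

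A list of 11 genes held enzymes that process or break down TRH or its precursor and the TRH receptors. Of these 6 had 0 UMIs in the endoderm-like cells, among them the receptor gene Trhr and the convertase genes Pcsk1 and Pcsk2, and 3 processing genes were tested, of which 0 were higher or lower. Pam, encoding the amidating enzyme, stood at 17.1 against 11.8 CPM (1.45-fold, 0.962 to 2.10), Furin at 21.3 against 14.9 CPM (1.43-fold, 0.992 to 1.99) and Cpe, encoding carboxypeptidase E, at 6.497 against 6.86 CPM (0.947-fold, 0.468 to 1.72). Only transcripts were measured, so whether any hormone was made is not known from these data.

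**Figure D3:**
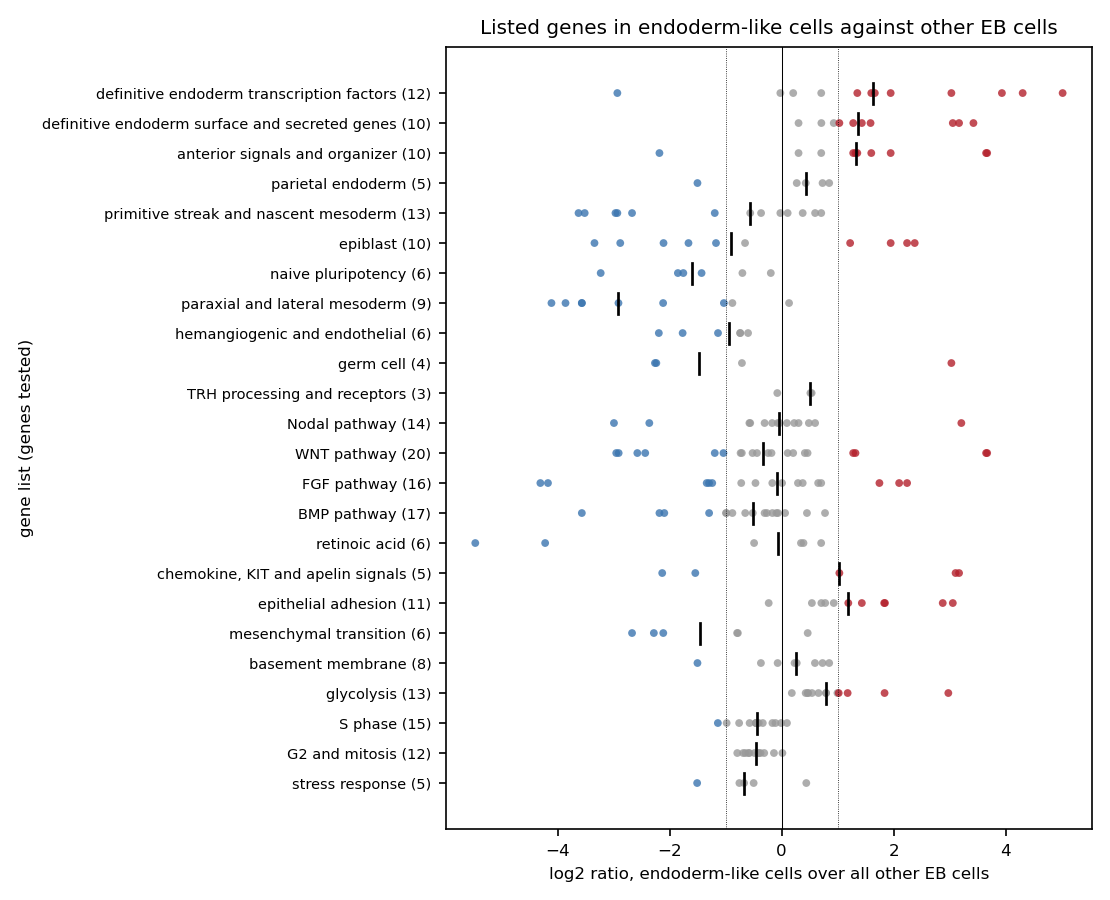
Each point is a tested gene placed by its log2 ratio of endoderm-like over other EB cells, red where at least 2-fold higher and blue where at least 2-fold lower, and the black bar is the median of its list (lists with at least 3 tested genes). The 3 endoderm and anterior lists have medians of 1.63, 1.35 and 1.33, and paraxial and lateral mesoderm has -2.91. Lists can share genes: the anterior list repeats genes of both endoderm lists, so these 3 medians are not separate.

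Genes of the streak and of mesoderm were next. Of 13 streak and nascent mesoderm genes tested 0 were higher and 6 lower, and of 9 paraxial and lateral mesoderm genes 0 were higher and 7 lower. The streak genes not past 2-fold included Eomes and Fgf8, given above. Mesp1, the early cardiovascular mesoderm factor, stood at 41.3 against 511 CPM (12.4-fold lower, 9.78 to 15.9), and T, the streak and notochord factor brachyury, at 28.9 against 227 CPM (7.83-fold lower, 5.92 to 10.6). Hand1, a factor of extraembryonic and lateral mesoderm, stood at 8.27 against 143 CPM (17.3-fold lower, 10.3 to 31.6). These transcripts were unevenly spread: 5 cells held 81.4% of the 70 Mesp1 UMIs, and T was seen in 16 cells. Free RNA at the level of empty droplets would give 9.17 Mesp1 UMIs and 2.83 Hand1 UMIs, of the 70 and 14 found. In the hemangiogenic list 0 of 6 genes tested were higher and 3 lower. Etv2, its master factor, stood at 33.7 against 115 CPM (3.41-fold lower, 2.63 to 4.51), with 73.7% of its 57 UMIs in 5 cells. Without the 5 cells that held most UMIs of each gene, the ratio of endoderm-like to other EB cells was 0.0165 for Mesp1, 0.0485 for T, 0.0307 for Hand1 and 0.0841 for Etv2. Kdr had no UMI left, so its value of 0.0287 is the floor of 3 counts and no measured ratio. The same step gave 0.0708 for Mixl1, 0.0545 for Fst, 0.0268 for Lefty2 and 0.0305 for Bmp4, with Lefty2 and Bmp4 near the same floor. The step removes the cells with most UMIs of that gene from 1 group only, which tends to lower the ratio. It therefore describes how few cells held these UMIs and gives no support for the difference.

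Markers of pluripotency split. Of 10 epiblast genes tested 4 were higher (Fgf5, Otx2 and Dnmt3b among them) and 5 lower (Pou5f1, Utf1, Sox2, Pim2 and L1td1). Dnmt3b, the de novo DNA methyltransferase of epiblast, stood at 709 against 136 CPM (5.19-fold, 4.88 to 5.52) and was seen in all 87 cells. Pou5f1, encoding OCT4, stood at 267 against 602 CPM (2.25-fold lower, 2.05 to 2.48), and was still seen in 87.4% of the endoderm-like cells. Sox2 stood at 2.36 against 23.98 CPM (10.2-fold lower, 3.95 to 37.3), from 4 UMIs. Of 6 naive pluripotency genes tested 0 were higher and 4 lower.

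Other endoderm types were checked by their own markers. Visceral endoderm, the yolk sac's epithelium, also expresses Foxa2 and, in its anterior part, Cer1, so its serum protein genes are the ones that set it apart. In the endoderm-like cells Ttr had 1 UMI, Afp 0 and Apoa1 3, and the 14 visceral endoderm genes summed to 18.3 CPM (0 to 127 over cells) against 14.3 CPM in the other EB cells, with 6 of the 14 at 0 UMIs. In 28 YS cells with Ttr, Apoa1 and Afp at 5000 CPM or more together, Afp alone stood at 8250 CPM. Parietal endoderm genes gave 0 higher and 1 lower (Sparc) of 5 tested. Of node and notochord genes only T was abundant enough to be tested, and Noto and Shh had 0 UMIs. Regional gut factors had 6 of 10 genes at 0 UMIs, and Cdx2, a hindgut and trophoblast factor, stood at 1.18 against 38.4 CPM from 2 UMIs. Of 4 germ cell genes tested 1 (Prdm1) was higher and 2 (Dnd1 and Dppa4) lower, and of 2 neural genes tested 0 were higher and 2 lower (Sox2 and Nes). Of the 7 feeder fibroblast genes 5 had 0 UMIs.

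Cell shape genes stood on the epithelial side. Of 11 epithelial adhesion genes tested 6 were higher and 0 lower, and of 6 mesenchymal transition genes 0 were higher and 3 lower. Cdh1, encoding E-cadherin, stood at 74.4 against 20.7 CPM (3.59-fold, 2.96 to 4.33), Cldn7 at 163 against 45.8 CPM (3.56-fold, 3.13 to 4.03) and the polarity gene Crb3 at 78.6 against 10.7 CPM (7.35-fold, 6.03 to 8.90). Snai1, the repressor of Cdh1, stood at 10.0 against 64.0 CPM (6.38-fold lower, 3.98 to 10.96). Vim, the mesenchymal filament gene, stood at 233 against 404 CPM (1.74-fold lower, 1.57 to 1.92), so it was under the 2-fold limit and seen in 86.2% of the endoderm-like cells.

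Of the 13 glycolysis genes 4 were higher and 0 lower, with a median log2 ratio of 0.79. Summed, they stood at 20104 CPM in the endoderm-like and 11978 CPM in the other EB cells. The 45 cells past the sum threshold only lay between, at 16010 CPM. Ldha, encoding lactate dehydrogenase A, ranged from 2465 to 13085 CPM over the endoderm-like cells and stood at 6340 against 2801 CPM (2.26-fold, 2.22 to 2.31). The glucose transporter genes Slc2a3 and Slc2a1 stood at 813 against 103 CPM (7.87-fold, 7.41 to 8.36) and 511.5 against 143 CPM (3.58-fold, 3.33 to 3.84). Pgk1, a glycolytic kinase gene, stood at 95.7 against 47.2 CPM (2.03-fold, 1.72 to 2.38), and at 1.75-fold without the 5 cells that held most of it. Several genes of this list have near-identical processed pseudogenes, and how reads shared with them were counted is not given in the sources used here.

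A list of 16 hypoxia response genes was added after the values had been seen. In it 7 of 14 genes tested were higher and 0 lower. Summed, the list stood at 1747 CPM in the endoderm-like and 952 CPM in the other EB cells. The 45 cells past the sum threshold only lay between, at 1334 CPM. Ddit4, an mTORC1 inhibitor, stood at 238 against 50.5 CPM (4.71-fold, 4.23 to 5.24), P4ha1, a collagen prolyl hydroxylase subunit, at 104 against 22.2 CPM (4.67-fold, 3.96 to 5.48), and the mitophagy gene Bnip3 at 119.9 against 37.5 CPM (3.20-fold, 2.75 to 3.70). Stress response genes, of which 5 were tested, gave 0 higher and 1 lower (Hspb1). Of 15 S phase genes 0 were higher and 1 lower (Rrm2), with a median log2 ratio of -0.45, and of 12 genes of G2 and mitosis 0 were higher or lower, with a median of -0.46.

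The promoters of 4 of these higher genes are shown because they hold the core of the hypoxia response element, ACGTG, searched on both strands (CACGT on the other). In the palindrome CACGTG the strands overlap. Each line is 5' to 3', from 250 bases before to 50 bases after a RefSeq start in GRCm38.p6, with matches in capitals. The windows are chr7:46845554-46845853 for Ldha, chrX:106186850-106187149 for Pgk1, chr4:119108495-119108794 for Slc2a1 and chr10:59323046-59323345 for P4ha1, all on the plus strand.
Ldha: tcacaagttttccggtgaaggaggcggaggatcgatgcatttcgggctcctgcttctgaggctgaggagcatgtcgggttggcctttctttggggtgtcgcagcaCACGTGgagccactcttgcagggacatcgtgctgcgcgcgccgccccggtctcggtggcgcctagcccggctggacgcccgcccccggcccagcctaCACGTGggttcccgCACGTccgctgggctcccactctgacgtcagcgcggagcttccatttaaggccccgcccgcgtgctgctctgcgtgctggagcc
Pgk1: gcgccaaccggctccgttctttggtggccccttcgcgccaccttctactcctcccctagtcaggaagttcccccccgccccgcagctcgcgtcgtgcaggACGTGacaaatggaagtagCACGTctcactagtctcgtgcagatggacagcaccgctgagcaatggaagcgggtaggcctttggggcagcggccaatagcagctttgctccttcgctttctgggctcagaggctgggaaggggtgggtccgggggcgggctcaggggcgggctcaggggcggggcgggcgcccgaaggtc
Slc2a1: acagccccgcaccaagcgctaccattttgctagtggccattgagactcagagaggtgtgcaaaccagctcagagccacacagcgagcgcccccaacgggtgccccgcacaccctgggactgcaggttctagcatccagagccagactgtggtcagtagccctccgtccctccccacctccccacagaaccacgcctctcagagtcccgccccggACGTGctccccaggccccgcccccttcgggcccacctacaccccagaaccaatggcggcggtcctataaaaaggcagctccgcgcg
P4ha1: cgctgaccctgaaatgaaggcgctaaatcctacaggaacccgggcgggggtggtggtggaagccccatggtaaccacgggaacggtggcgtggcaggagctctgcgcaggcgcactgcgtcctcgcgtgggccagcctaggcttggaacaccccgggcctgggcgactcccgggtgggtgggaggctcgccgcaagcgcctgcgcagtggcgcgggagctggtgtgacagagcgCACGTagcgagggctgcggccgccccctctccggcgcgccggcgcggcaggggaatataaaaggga
The Ldha window shown has matches at 3 separate places, the Pgk1 window at 2, and those of Slc2a1 and P4ha1 at 1 each. A second RefSeq start of Ldha, with the window chr7:46846832-46847131, has 0. Among the glycolysis list, 12 of 13 genes were in the RefSeq table, with 18 windows, of which 9 (50.0%) held the motif, against 19.6% of all 32851 windows. By gene, 8 of the 12 had it. Besides Ldha, Pgk1 and Slc2a1 these were Aldoa, Gapdh, Hk2, Pgam1 and Pkm, which were not past 2-fold. The motif was thus not limited to the higher genes of the list. Slc2a3, the other higher gene, was not among the 8, and whether it was in the RefSeq table is not given here. Base composition differed as well: GC content averaged 63.0% in the glycolysis windows and 53.8% in all, and its part in the difference was not tested. Of the 20 genes of largest ratio 14 were in the table, and 5 of these (35.7%) had the motif in a window. Cer1, a gene of the rule, was among the 5. Counted by gene in the same way, 21.8% of all genes in the RefSeq table had it. Other motifs were searched as well, on both strands. In the same 14 genes the forkhead motif TGTTTAC was found in 0, the SOX motif ACAATG in 0, the GATA motif AGATAA in 1 (Cfc1) and the bicoid-type homeobox motif TAATCC in 0, and these motifs were in 3.65%, 12.6%, 11.2% and 7.06% of all windows. In the 12 glycolysis genes they were found in 0, 2, 0 and 2. The HNF1 motif was found in 0 of the 14 and 0 of the 12 genes, and in 0.0609% of all windows. For these motifs the listed sets are counted by gene and the whole table by window, so the 2 are unlike units. A match describes these letters only and shows neither a bound site nor a cause, and the search was chosen after the values had been seen.

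The cells just outside the rule were not alike. The 75 cells past the Trh threshold only stood high in pluripotency genes: Dppa5a at 2650 CPM against 212 CPM in the endoderm-like cells, Pou5f1 at 932 against 267 CPM, Sox2 at 92.4 against 2.36 CPM and Utf1 at 151 against 4.73 CPM. Their Dppa5a ranged from 0 to 17375 CPM over cells with a median of 1151 CPM, so they were themselves mixed. The 45 cells past the sum threshold only stood at 334 CPM Sox17 against 397 CPM in the endoderm-like cells, both groups having been chosen by the same sum. Krt8, a simple epithelial keratin gene, stood at 760 against 599 CPM. Lmo2, encoding a partner of TAL1, stood at 201 against 25.4 CPM, and Kdr at 85.4 against 14.8 CPM, where the other EB cells had 55.9 and 67.6 CPM. Lmo2 was seen in 19 of the 45 cells and Kdr in 18, so the median cell had 0 CPM of either and a minority of the cells held these UMIs. Emb, in no rule, stood at 865 CPM in these cells, between the 1669 CPM of the endoderm-like cells and the 437 CPM of the cells past the Trh threshold only. Summed epithelial adhesion genes stood at 2123 CPM in the 45 cells, 2254 in the endoderm-like and 987 in the other EB cells. In that order, endoderm surface and secreted genes stood at 1864, 2055 and 920 CPM, and endoderm transcription factors at 666, 741 and 529 CPM. These levels were thus not particular to the endoderm-like cells. Mesenchymal transition genes stood at 1088, 737 and 1271 CPM, nearer the other EB cells. The epithelial adhesion and surface sums share genes, Cldn6 and Epcam among them. The factor sum holds Eomes and Mixl1, which were not higher in the endoderm-like cells. In the 348 EB cells with at least 500 CPM Mesp1 and no Kdr UMI, the factors summed to 620 CPM. Adhesion and surface genes summed to 603 and 515 CPM there.

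YS endoderm cells shared some genes with the EB endoderm-like cells and lacked others. Cldn6 stood at 696 CPM in YS endoderm and 359.7 CPM in the endoderm-like cells, Slc2a3 at 866 and 813 CPM, and Foxa2 at 40.5 and 80.9 CPM. Tmprss2, a serine protease gene of endodermal epithelia, stood at 157 and 28.9 CPM. Dnmt3b at 7.85 and 709 CPM and Sox17 at 7.85 and 397 CPM were low in YS endoderm, where Trh, Cer1 and Fgf5 had 0 UMIs (3 counts there would be 3.92 CPM). The YS endoderm was selected by other genes, came from another library and was up to E10.5 in age, so library, source and stage cannot be told apart.

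**Figure D4:**
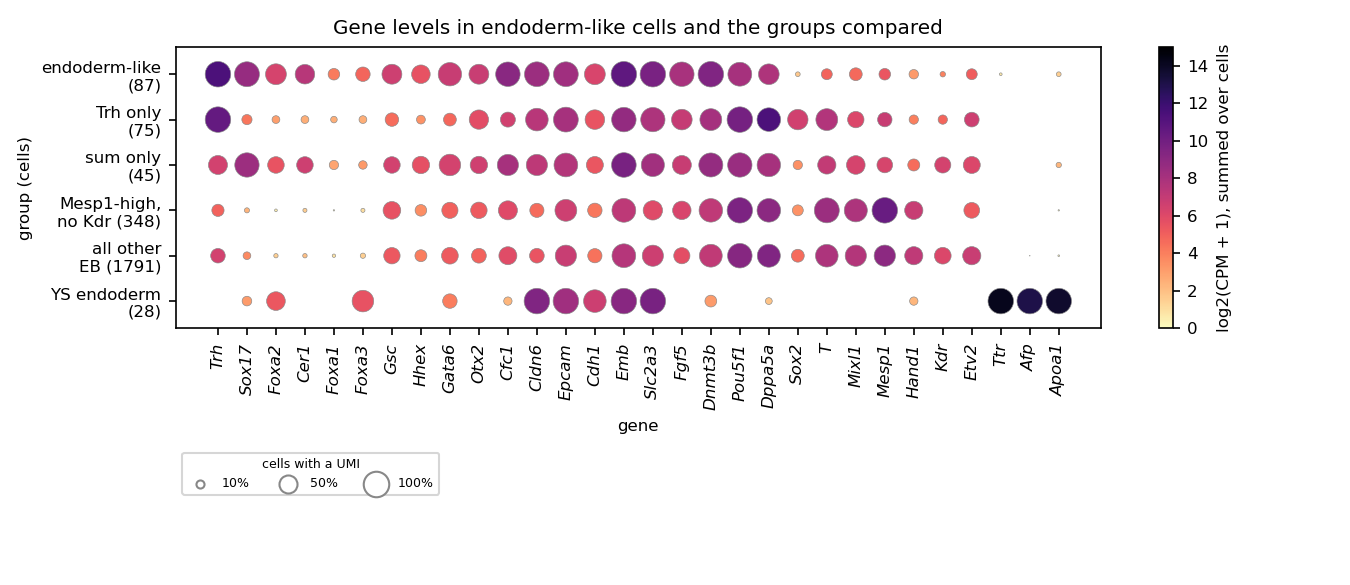
Rows are 6 groups of cells (the 348 Mesp1-high cells have at least 500 CPM Mesp1 and no Kdr UMI), columns 30 genes, colour is log2(CPM + 1) summed over the group's cells and dot size is the percentage of cells with a UMI. Endoderm-like cells combine Trh with Sox17, Foxa2 and Cer1 by the rule, cells past the Trh threshold only show Dppa5a and Sox2, and Ttr, Afp and Apoa1 appear in YS endoderm.

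Whether the endoderm-like cells also lay together on genes outside the rule was described with nearest neighbours computed after Trh, Sox17, Foxa2 and Cer1 had been removed. Of the 15 nearest EB cells of an endoderm-like cell, 67.5% on average were endoderm-like, where these are 4.63% of the library, and 76 of the 87 cells had 8 or more such neighbours. The share was 27.4% for the cells past the sum threshold only, 7.91% for those past the Trh threshold only and 0.571% for the 1671 cells past neither. Outside the rule 21 cells had 8 or more endoderm-like neighbours, with median values of 248 CPM Trh and 387 CPM for the sum of Sox17, Foxa2 and Cer1. Inside it 11 cells had fewer than 8, with a median Trh of 953 CPM. The rule's edge and the neighbourhood therefore overlapped without being the same.

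**Figure D5:**
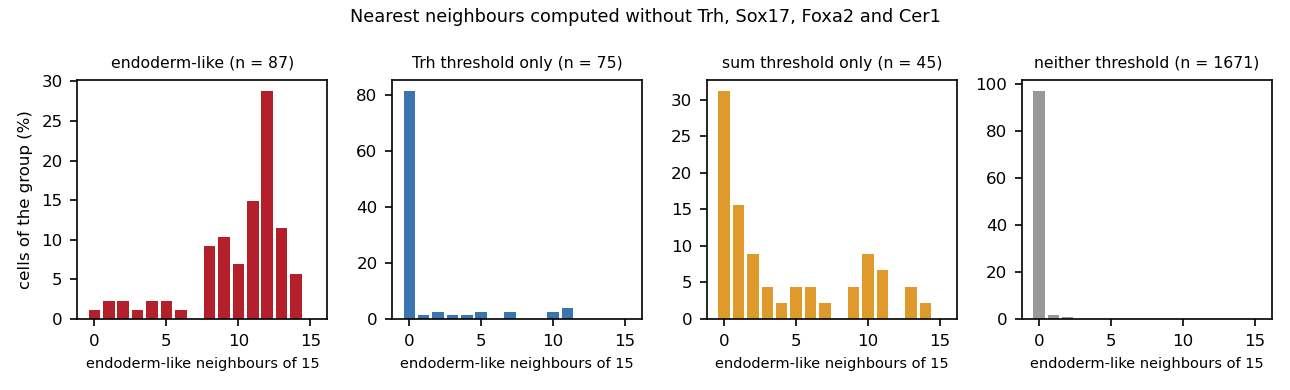
Bars give the percentage of cells of each group (y axis) by the number of endoderm-like cells among their 15 nearest neighbours (x axis), with the 4 rule genes left out and a separate y scale in each panel. Most of the 87 endoderm-like cells have 8 or more, and most of the 1671 cells past neither threshold have 0.

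The 87 cells varied among themselves. In 80 of them Sox17 was at 100 CPM or more and in 7 it was below. Pou5f1 stood at 234 CPM in the first and 679 CPM in the second group, where 1 cell held 52 of the 86 Pou5f1 UMIs, and T at 23.6 and 94.7 CPM, where all 12 T UMIs came from 1 cell. Foxa2 stood at 77.2 and 126 CPM (0.612-fold, 0.362 to 1.10). These differences rest on few cells and on the gene that the rule used. Over 66 pairs of 12 genes, with cells thinned to 6000 UMIs, Spearman correlations across the 87 cells ran from -0.22 (Sox17 with Pou5f1) to 0.37 (Cer1 with Hhex). Thinning made depth equal, and in counts this sparse such weak values are a description and no finding.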

How the data were processed

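The authors deposited unnormalised UMI counts for each gene in each barcode of a 10x Genomics library, with mm10 as the genome build per the submitters' processing notes. Aligner, counting program and annotation: not given in the sources used here. The count tables were not filtered to cells (33456 genes, 737280 barcodes). Cells were barcodes past a UMI minimum (the lowest kept had 6233 UMIs in EB and 6557 in YS). Counts were summed over cells and scaled to CPM, with exact 95% intervals (Poisson for levels, Clopper-Pearson for shares, conditional binomial for ratios). Doublets were kept. Computation used Python 3.11.15 with numpy 2.4.6, scipy 1.17.1 and scikit-learn 1.9.0. The ratio intervals were run on simulated counts drawn from the same counting model that they assume. That run checks the calculation only, and cannot show how the intervals hold where UMIs gather in few cells. Neighbours used 2000 variable genes and 30 principal components. The members, gene lists and marker lists were chosen with earlier results of these data known. Named genes were the 20 of largest ratio higher and the 12 lower in endoderm-like cells (at least 100 CPM, 30 UMIs and 25% of cells in the higher group), listed genes past 2-fold or at the ends of a list, and fixed markers; the text gives part of them. Emphasis among them was chosen after their values were seen. GENCODE M21 gave gene coordinates, and 1 listed apelin-family gene was unmatched. Some listed genes that entered the counts are not reported here.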

Additional observations from a re-analysis of the deposited data

How the results depend on the processing

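No named gene past 2-fold changed direction under any alternative run that applies to genes. Of 119 named genes past 2-fold, 108 stayed past it in every one of the 14 settings that apply to genes. The remaining 11 did not (among them Cxcr4, Dkk1, Dll3, Esrp1, Fgf17, Lmo2, Nes, Pgk1, Sp8 and Wnt3). Part of this outcome was fixed in advance. The named genes include genes of the rule, such as Cer1, which the rule selects to be high in every setting. Leaving out the endoderm-like cells with most UMIs of a gene tends to lower its ratio. The ratio can rise where no UMI remains, since 3 counts are then put in place, or where the cells left out were deep. A gene already lower was therefore unlikely to fail that setting or change direction in it. With a summed threshold of 400 CPM, endoderm-like cells were 3.25% of EB cells and 54.9% of their own neighbours. Genes higher and lower numbered 775 and 804 with a mean of at least 2 CPM, 167 and 130 with at least 20 CPM, and 1664 and 1130 with no filter. At a fold of 1.5 they numbered 1037 and 1178, and at a fold of 3 they numbered 209 and 204. Centring on the median ratio moved the share of calls that were higher from 52.3% to 59.4%. That share was 48.3% with a summed threshold of 400 CPM and 46.8% at a fold of 1.5. Which direction held more genes therefore depended on the setting.

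Hemangiogenic genes lower were 5 with Trh at 1000 CPM or more and 5 with each cell weighted equally, and 6 at a fold of 1.5; 2 were higher with no filter. At least 2 CPM gave 1 visceral endoderm gene higher and 1 epithelial gene lower. At least 20 CPM, which tests fewer genes, left 5 endoderm factors and 3 surface genes higher, and 3 epiblast, 2 naive and 3 mesoderm genes lower. No filter gave 3 visceral genes higher and 2 lower, 2 naive genes higher, 11 mesoderm genes lower and 1 epithelial gene lower. A fold of 1.5 gave 2 streak and 8 glycolysis genes higher, and a fold of 3 gave 4 surface and 2 glycolysis genes higher. Scrublet marked 3 EB cells as doublets, and 86 endoderm-like cells remained without them. No paired analysis was possible because each group is 1 library and the labels give no replicate numbers. Depth limits a gene with 0 UMIs to 1.77 CPM in the endoderm-like cells. Differences between cultures cannot be judged from 1 library.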
